A study of Mus musculus with 4 samples.

Results

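Of 8 genes listed as E protein targets of early lymphoid progenitors, Lax1 and Il7r were higher in cDC2 labelled Id2 KO than in WT cDC2. The rise of Il7r no longer passed the test when dim genes were included, or without WT replicate 1 or Id2 KO replicate 2. The rise of Lax1 passed in each of these settings. The surrogate light chain and pre-T cell receptor genes showed no difference that passed the test. The recombinase and terminal transferase genes were too dim to enter it. The 8 genes were Rag1, Rag2, Dntt, Igll1, Vpreb1, Ptcra, Il7r and Lax1, listed by name and measured by the brightest probe set that the array annotation gives to that symbol alone. All 8 were on the array, out of 19938 genes named there, and each had 1 such probe set. The sorted cells, cDC2, are the Sirpa-bearing class of conventional dendritic cells, specialised in presenting antigen to CD4 T cells. Their source was the spleen of chimeric mice carrying Zbtb46-GFP, a fluorescent reporter of a transcription factor gene of conventional dendritic cells, which both groups shared. The groups were WT (2 arrays) and Id2 KO (2 arrays), and a sentence of the design text names bone marrow where the sample labels name spleen. The strain and age of the mice, the host cells left in the chimeras, the number of reporter alleles in each group, the deleted part of Id2 and the pooling of animals are not given in the sources used here. Nothing says that replicates were separate mice, so p-values rest on the spread between these arrays, pooled in part over genes. That spread may be technical.

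E proteins, encoded by Tcf3, Tcf4 and Tcf12, are helix-loop-helix factors that bind the E-box, a short DNA motif written CANNTG, and open the B and T lymphoid programmes in progenitors. Id2 pairs with E proteins without binding DNA and so keeps them from their sites. In lymphoid progenitors and plasmacytoid dendritic cells, where E protein activity is high, several of these genes are known to be transcribed, whereas mature conventional dendritic cells keep Id2 high.

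The RefSeq promoter table (GRCm38.p6) matched all 8 genes, with windows of 300 bases that reach from 250 bases before each start to 50 after it. The E-box is the motif these factors recognise, so the windows are shown for both genes that rose and for Ptcra and Igll1, which did not pass. Capitals mark every CANNTG, a pattern that reads as CANNTG on both strands.
Il7r (chr15:9529827-9530126, minus strand): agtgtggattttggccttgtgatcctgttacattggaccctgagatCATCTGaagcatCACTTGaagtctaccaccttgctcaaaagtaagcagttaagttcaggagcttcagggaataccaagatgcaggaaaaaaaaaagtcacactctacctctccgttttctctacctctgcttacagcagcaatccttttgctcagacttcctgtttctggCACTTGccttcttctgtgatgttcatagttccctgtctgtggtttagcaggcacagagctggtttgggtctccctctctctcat
Lax1 (chr1:133690059-133690358, minus strand): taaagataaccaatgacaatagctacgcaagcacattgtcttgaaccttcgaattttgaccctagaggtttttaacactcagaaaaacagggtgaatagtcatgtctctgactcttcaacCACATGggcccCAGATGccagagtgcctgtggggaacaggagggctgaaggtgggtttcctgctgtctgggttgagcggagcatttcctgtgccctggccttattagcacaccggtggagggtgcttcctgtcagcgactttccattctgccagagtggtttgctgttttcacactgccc
Ptcra (chr17:46763663-46763962, minus strand): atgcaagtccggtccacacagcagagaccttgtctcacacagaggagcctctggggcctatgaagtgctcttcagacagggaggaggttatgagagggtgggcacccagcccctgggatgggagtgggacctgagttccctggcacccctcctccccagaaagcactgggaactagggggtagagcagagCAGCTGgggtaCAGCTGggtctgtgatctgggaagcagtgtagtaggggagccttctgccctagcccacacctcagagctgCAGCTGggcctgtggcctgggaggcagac
Igll1 (chr16:16863936-16864235, minus strand): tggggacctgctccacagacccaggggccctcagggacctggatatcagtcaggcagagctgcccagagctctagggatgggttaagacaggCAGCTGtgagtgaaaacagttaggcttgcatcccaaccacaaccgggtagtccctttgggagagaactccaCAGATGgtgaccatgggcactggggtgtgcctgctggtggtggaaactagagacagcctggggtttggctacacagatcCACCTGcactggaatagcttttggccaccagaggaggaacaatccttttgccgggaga

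All 8 genes had a CANNTG in a window, as did 72.3% of the 32851 windows in the table. E proteins are known to favour the form CAGCTG and the form CACCTG, which reads CAGGTG on the other strand. Both are subsets of CANNTG, and 32.9% of all windows hold at least 1 of them. In the promoter of Ptcra, CAGCTG began 60 and 49 bases before the start and again 21 bases after it. Igll1 held CAGCTG 158 bases and CACCTG 8 bases before its start. Vpreb1 held CAGGTG 88 bases before its start, and Rag1 held CAGGTG and CAGCTG 135 and 128 bases before its own. The windows of Il7r, Lax1, Rag2 and Dntt held neither form, and their E-boxes were other CANNTG matches. In Il7r these were CATCTG at 204 bases and CACTTG at 192 and 34 bases before the start. In Lax1 they were CACATG and CAGATG at 130 and 119 bases, and a second start of Lax1 in the table has the same pair in its window. The favoured forms thus lay at 4 genes that did not pass or were not tested and at neither gene that rose, a description with no test. A match describes the letters of the window only, and its absence says nothing of sites elsewhere.

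The labels were checked before the comparison. Id2, measured by a probe set whose place relative to the deletion is unknown, was at log2 9.14 and 9.08 on the WT arrays and at 8.71 and 8.97 on the Id2 KO arrays, a difference of -0.27 that did not pass (limma, adjusted p = 0.172) except without Id2 KO replicate 2 (-0.40, adjusted p = 0.0343). Every direction below therefore rests on the labels. The cDC2 marker Sirpa was at log2 12.41 and 12.39 on the WT arrays and at 12.14 and 12.20 on the Id2 KO arrays, so the defining marker of the sort was present on each array. Neutrophil markers summed to an intensity of 17403.5 to 18014.8 in WT and 1372.7 to 2289.8 in Id2 KO, and cell cycle genes to 4473 to 4664 and 10390.4 to 13296.5. Xist (log2 11.96 in both WT arrays, 6.67 and 6.68 in Id2 KO) and the Y-linked Kdm5d (5.72 and 5.53, 8.08 and 8.50) split the arrays in the same way as the genotype labels, and the sex of the cells and the genotype cannot be told apart. All 8 genes studied here are on autosomes, and whether any of them differs with sex was not tested.

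A gene was tested where its mean over the 4 arrays exceeded the 40th percentile of all named genes, log2 6.77. Igll1, Vpreb1, Ptcra, Il7r and Lax1 passed this filter, and Rag1, Rag2 and Dntt lay below it. Of the 5 tested, 2 rose in Id2 KO, none fell and 3 did not pass, where 8.04% of all 11963 tested genes were called, 5.53% higher and 2.52% lower (limma, Benjamini-Hochberg adjusted p below 0.05). Without the filter 1 of the 8 was called, Lax1, where 4.17% of all genes were, 2.75% higher and 1.42% lower. The groups did not overlap for 3 of the 5, Lax1 and Il7r upward and Vpreb1 downward, as they did not for 50.7% of all tested genes, 27.9% upward and 22.8% downward. The median difference of the 5 was 0.02 on the log2 scale, and that of all tested genes was 0.01. Where none of a list rose or fell in limma, here and below, no tested gene of it went that way at an unadjusted p below 0.05 either, except in the lists of IL-7 signalling (2 lower) and of Id and E proteins (1 lower, Id2). With so few genes, the count is a description of Il7r and Lax1 and not of the set. In bulk RNA, fewer cells of a type and less RNA per cell cannot be told apart. An exact permutation test of 2 against 2 arrays cannot go below a two-sided p of 0.333.

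**Figure D1:**
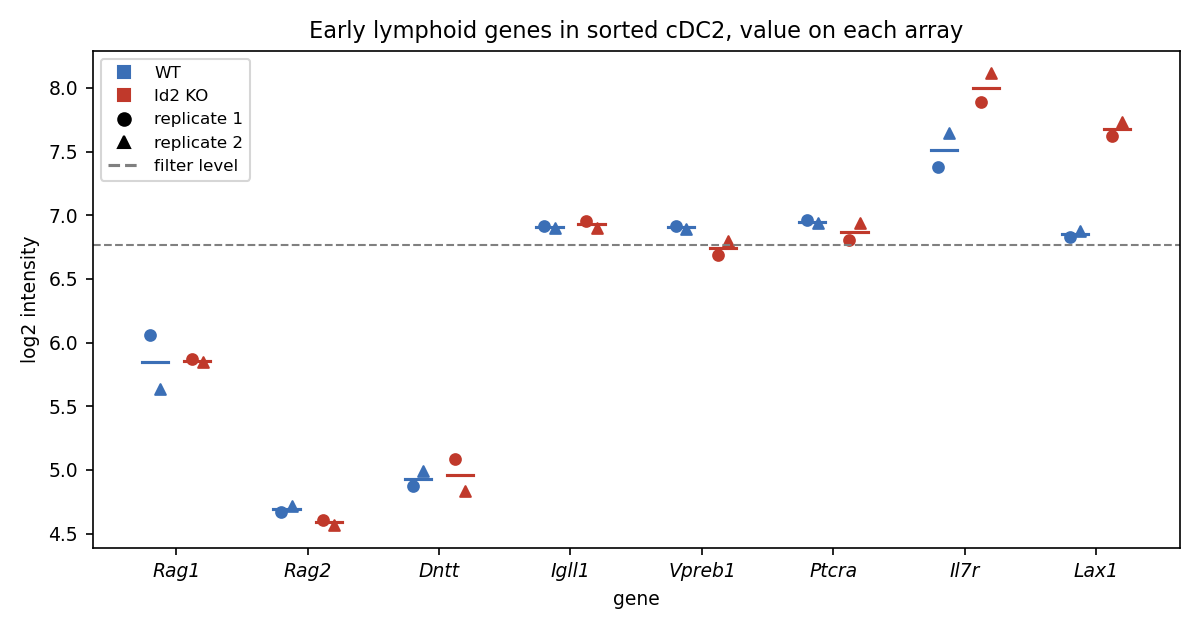
Log2 intensity of each gene (x axis) on each array (y axis), with circles for replicate 1, triangles for replicate 2, blue for WT, red for Id2 KO, bars for group means and a dashed line at the filter level of 6.77. Lax1 and Il7r lie higher on both Id2 KO arrays than on both WT arrays, and Rag1, Rag2 and Dntt lie under the dashed line on all 4; levels of different genes come from different probes and cannot be ranked.

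The recombinase genes Rag1 and Rag2, whose products together cut the antigen receptor loci, gave dim signals on all 4 arrays. Rag1 was at log2 6.06 and 5.64 on the WT arrays and at 5.87 and 5.85 on the Id2 KO arrays. Both Id2 KO values lie between those of WT, whose own gap of 0.42 is the widest replicate gap among the 8 genes. In a fit without the filter the Rag1 difference was 0.01 (95% interval -0.29 to 0.30, adjusted p = 0.989). Rag2 was at 4.67 and 4.71 on the WT arrays and at 4.61 and 4.57 on the Id2 KO arrays, lower in both Id2 KO arrays but by 0.10 only (interval -0.29 to 0.09, adjusted p = 0.661 without the filter). Dntt, the terminal transferase that adds bases to the joints of receptor genes, was at 4.87 and 4.99 on the WT arrays and at 5.08 and 4.84 on the Id2 KO arrays. Its groups overlap, and the difference was 0.03 (interval -0.21 to 0.27, adjusted p = 0.948 without the filter). No background was measured here, so whether these 3 transcripts were present at all is not known, and the size of any change in a dim probe set is uncertain.

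Other genes of receptor gene recombination and the joining of DNA ends rose in 2 of 12 tested cases and fell in none. Hmgb1 and Hmgb2 encode DNA-bending proteins that assist the recombinase and also act widely in chromatin. Hmgb1 rose from 8.05 on both WT arrays to 8.63 and 8.74, a difference of 0.63 (adjusted p = 0.00161). Hmgb2 was at 10.18 and 9.98 on the WT arrays and at 10.91 and 10.53 on the Id2 KO arrays, a rise of 0.64 (adjusted p = 0.0155) that was lost without WT replicate 2 (0.54, adjusted p = 0.101). The joining gene Xrcc6 (0.23, adjusted p = 0.279) and the damage kinase gene Atm (0.18, adjusted p = 0.384) did not pass, except Xrcc6 without Id2 KO replicate 2 (0.39, adjusted p = 0.0484). All 11 tested cell cycle genes rose. Their summed intensity was 4473 and 4664 on WT replicates 1 and 2, and 13296.5 and 10390.4 on Id2 KO replicates 1 and 2. The part of cell division in the rise of Hmgb2 was not tested.

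Igll1 and Vpreb1, neighbours on chromosome 16, encode the surrogate light chain that pairs with the heavy chain in the pre-B cell receptor. Igll1 was at 6.92 and 6.90 on the WT arrays and at 6.96 and 6.90 on the Id2 KO arrays. Its difference of 0.02 (95% interval -0.16 to 0.20, adjusted p = 0.931) had the narrowest interval of the 5 tested genes. Vpreb1 was at 6.91 and 6.90 on the WT arrays and at 6.69 and 6.79 on the Id2 KO arrays. Both Id2 KO arrays lie under both WT arrays, but the difference of -0.16 (interval -0.35 to 0.02, adjusted p = 0.312) did not pass. The Id2 KO mean of Vpreb1, 6.74, lies under the filter level, so it was tested only through its WT values. For both genes the upper end of the interval lies under the rises of Lax1 and Il7r. Their means over the 4 arrays, 6.92 for Igll1 and 6.82 for Vpreb1, were close to the filter level. The intervals thus bound the probe signal only, and whether either transcript was present is not known. Vpreb2, a near-identical copy of Vpreb1 whose transcripts the probes may share, did not pass either (0.11, adjusted p = 0.580), nor did Vpreb3 (0.08, adjusted p = 0.760).

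Of 15 tested genes of the pre-B cell receptor and early B programme, 7 rose, none fell and 8 did not pass, with a median difference of 0.17. Cd79a, which encodes a signalling chain of the receptor, was at 7.22 and 6.89 on the WT arrays and at 7.98 and 8.68 on the Id2 KO arrays (1.27, adjusted p = 0.00494). Its partner Cd79b rose by 0.40 (adjusted p = 0.0175), a call lost without WT replicate 1 or WT replicate 2 and with the replicate number as a block (adjusted p = 0.0524). The adaptor gene Blnk rose by 1.20 from a WT mean of 6.35, under the filter level, so that it was tested only through its Id2 KO values, and it was not tested with either Id2 KO array left out. The B lineage factor gene Pax5 rose by 1.27, Ikzf3 by 1.12, the coactivator gene Pou2af1 by 0.59 and the surface protein gene Ly6d by 1.31. The kinase genes Syk (-0.06, adjusted p = 0.756) and Btk (0.09, adjusted p = 0.640), which signal downstream of the receptor, did not pass, nor did the transcription factor genes Foxo1, Ikzf1, Lef1 and Bach2. Ebf1, the factor that opens the B lineage together with E proteins, lay below the filter on average but was at 5.51 and 5.74 on the WT arrays and at 7.39 and 7.30 on the Id2 KO arrays (1.72, adjusted p = 6.55e-05 without the filter). Ebf1, chosen for mention after its values were seen, thus differed where Rag1, Rag2 and Dntt, in the same fit, did not pass.

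Ptcra encodes the chain that pairs with the T cell receptor beta chain in the pre-T cell receptor, and it is also known as a gene of plasmacytoid dendritic cells. It was at 6.96 and 6.94 on the WT arrays and at 6.80 and 6.94 on the Id2 KO arrays. Id2 KO replicate 2 lies within the WT range, and the difference of -0.08 (95% interval -0.27 to 0.11, adjusted p = 0.673) did not pass. Among 12 tested genes of the pre-T cell receptor and early T programme, 1 rose and 2 fell, with a median of -0.09. The Notch target gene Hes1 fell by 0.47 (adjusted p = 0.0066), a call lost without WT replicate 2 (adjusted p = 0.0558). Cd3d, a chain of the T cell receptor complex, fell by 0.43 (adjusted p = 0.0103), lost without WT replicate 1 (adjusted p = 0.0737) or WT replicate 2 (adjusted p = 0.0723). Dtx1, a Notch regulator, rose by 0.31 (adjusted p = 0.0495), a call lost with any array left out. Notch1, the receptor upstream of these genes, differed by 0.06 (adjusted p = 0.764).

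**Figure D2:**
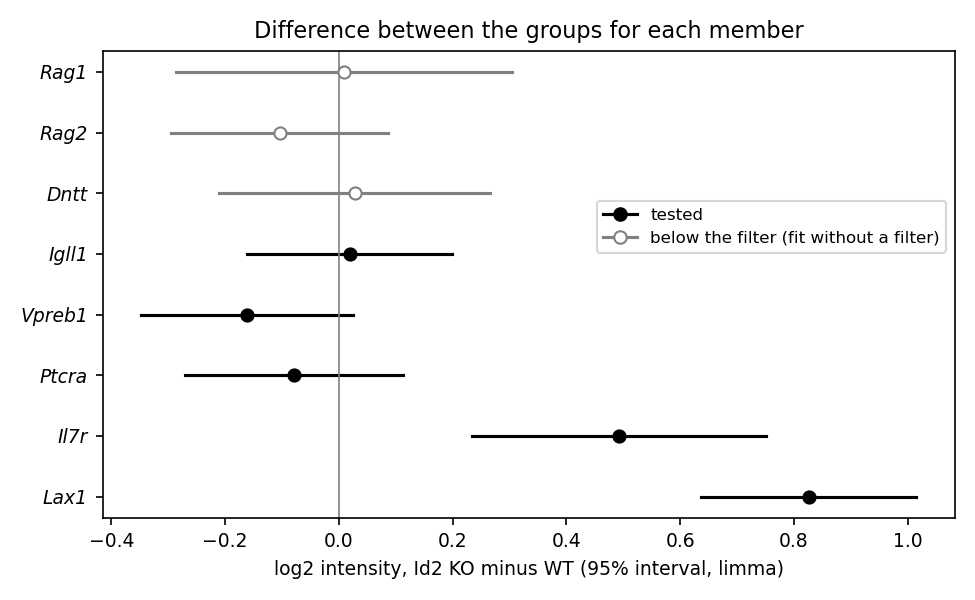
Difference in log2 intensity, Id2 KO minus WT (x axis), with the 95% interval from limma for each gene (y axis). Filled points were tested and open points lay below the filter, with intervals from the fit without it; the intervals of Il7r (0.23 to 0.75) and Lax1 (0.64 to 1.01) lie above 0 and the other 6 include it.

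Il7r encodes the alpha chain of the receptor for interleukin 7, the growth factor of early B and T cells, and the same chain forms the receptor for the epithelial cytokine TSLP together with Crlf2. Il7r was at log2 7.38 and 7.64 on the WT arrays and at 7.89 and 8.11 on the Id2 KO arrays. The groups do not overlap, but the lower Id2 KO array exceeded the higher WT array by 0.25, less than the gap of 0.26 between the WT arrays. The rise of 0.49 (1.41-fold, 95% interval 0.23 to 0.75, n = 2 per group) passed the test (adjusted p = 0.0308). The call was lost without WT replicate 1 (0.36, adjusted p = 0.246), without Id2 KO replicate 2 (0.38, adjusted p = 0.0914) and without the filter (adjusted p = 0.0534), in a range of adjusted p over the alternatives of 0.0129 to 0.246.

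Of the partners of Il7r, none of 9 tested genes of its receptor and signalling passed in limma, with a median of -0.07, and 2 of them, Mcl1 and Bcl2, were lower at an unadjusted p below 0.05. Crlf2 differed by 0.02 (adjusted p = 0.927), at 8.27 and 8.22 on the WT arrays and 8.25 and 8.28 on the Id2 KO arrays. The survival gene Mcl1 (-0.27, adjusted p = 0.114), the survival gene Bcl2 (-0.19, adjusted p = 0.209), the signal transducer gene Stat5a (0.19, adjusted p = 0.262) and the feedback inhibitor gene Cish (-0.17, adjusted p = 0.617) had the largest differences. Cish, a target of STAT5, was at 7.17 and 6.62 in the Id2 KO arrays, a wider gap than its distance from WT, and it passed without Id2 KO replicate 1 (-0.44, adjusted p = 0.0316).

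Lax1 encodes a transmembrane adaptor of lymphocytes that binds Grb2-family proteins and limits signalling from antigen receptors. It was at log2 6.83 and 6.87 on the WT arrays and at 7.62 and 7.73 on the Id2 KO arrays. The lower Id2 KO array stood 0.75 above the higher WT array, more than the replicate gaps of 0.05 and 0.11. The rise of 0.83 (1.77-fold, 95% interval 0.64 to 1.01, n = 2 per group; adjusted p = 4.05e-04) was larger than the differences of 98.5% of tested genes, and Il7r exceeded 96.4%. The call held under every alternative that tested Lax1, with adjusted p between 4.77e-05 and 0.00662. The WT mean of 6.85 is close to the filter level, so the size of the rise is uncertain.

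Of 12 other tested genes for transmembrane and cytosolic adaptors, 2 rose and none fell, with a median of 0.03. They were Blnk, counted in the early B list too and with its WT mean under the filter level, and Grap, a Grb2-like adaptor of lymphocytes, which went from 9.05 and 9.01 in WT to 9.61 and 9.52 in Id2 KO (0.53, adjusted p = 0.00395). Grap2 (0.28, adjusted p = 0.259) and Lat2 (-0.18, adjusted p = 0.351) did not pass.

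**Figure D3:**
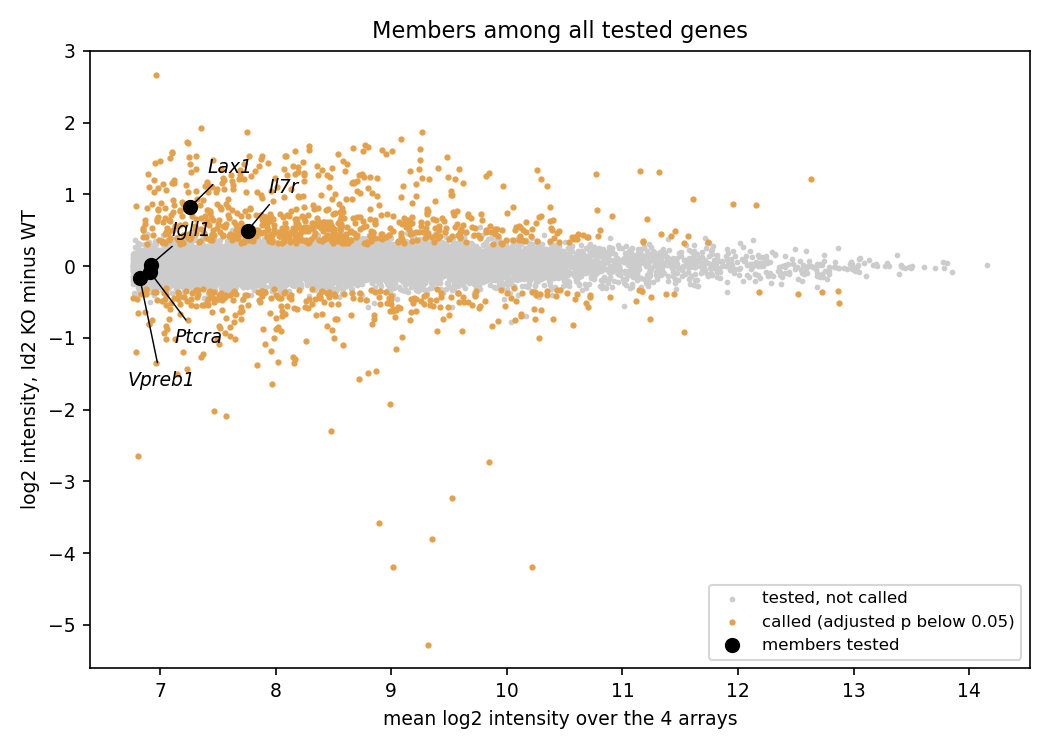
Mean log2 intensity over the 4 arrays (x axis) and difference, Id2 KO minus WT (y axis), of the 11963 tested genes, in grey where not called and orange where called, with the 5 tested early lymphoid genes in black. Lax1 and Il7r lie among the called genes, and Ptcra, Igll1 and Vpreb1 lie at the dim end near 0.

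The E protein genes themselves did not pass the test, with Tcf3 at a difference of 0.08 (adjusted p = 0.677), Tcf4 at -0.07 (adjusted p = 0.686) and Tcf12 at -0.11 (adjusted p = 0.497). Id1, Id3 and Id4 lay below the filter, at differences of -0.04, -0.03 and -0.04.

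Cells other than cDC2 can carry the same transcripts, so markers of lymphoid cells are given beside Il7r and Lax1. Of 9 tested markers of mature B cells, which are known to express Lax1, 6 rose and 1 fell, with a median of 0.69, and the summed intensity of the 10 on the array was 3098.5 to 3124.1 in WT and 3478.9 to 3846 in Id2 KO. Ms4a1 (CD20) rose by 1.53, Fcmr by 1.67, Cr2 by 1.28, Fcer2a by 1.03, Fcrla by 0.69 and Blk by 0.34. The call of Blk was lost when any array was left out. Cd22 fell by 0.56, and Cd72 was lower on both Id2 KO arrays but did not pass (-0.34, adjusted p = 0.0743). Cd22 and Cd72 had the highest intensities of the list and weigh most in its sum. Cxcr5, below the filter, was higher by 0.91 (adjusted p = 0.00155 without the filter). Cr2 and Fcer2a here, Vpreb1 and Vpreb3 above, and Ccr9, Cd200, Mpo and Zbtb46 below, had a group mean under the filter level. Like Blnk, they were tested only through their other group. Ighm, the heavy chain that pairs with the surrogate light chain and is abundant in B cells, was at 7.76 and 7.67 on the WT arrays and at 7.75 and 8.24 on the Id2 KO arrays (0.28, adjusted p = 0.316). It passed without Id2 KO replicate 1 (0.53, adjusted p = 0.0113) and was at 0.033 without Id2 KO replicate 2. The part of B cells in the rises of Il7r and Lax1 was not tested.

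T cells and innate lymphoid cells are known to carry Il7r, and none of their tested markers rose. Of 9 tested T cell markers, Cd3d fell and none rose, with a median of -0.10 and a summed intensity of 2412.8 to 2426.9 in WT and 2253.8 to 2309.3 in Id2 KO. Of 3 tested markers of NK and innate lymphoid cells, Klrd1 fell by 0.40 (adjusted p = 0.044, lost without WT replicate 1, WT replicate 2 or Id2 KO replicate 1) and none rose, with sums of 3820.4 to 4050.3 and 3035.3 to 3314.2. Tbx21 and Prf1 both differed by -0.02, a sign that flips for Tbx21 with 1 array left out and for Prf1 also with median-centred arrays.

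Of 9 tested markers of plasmacytoid dendritic cells, 4 rose and none fell, with a median of 0.34 and sums of 3136.7 to 3149.5 in WT and 3708 to 3790 in Id2 KO. They were Ly6d (counted in the early B list too), the transcription factor gene Spib (1.07), Siglech (0.56, lost without WT replicate 2) and Pacsin1 (0.34, lost with any array left out). Ptcra, a gene of the same cells, did not pass. The 5 tested markers of the list that did not pass were Cd300c (0.40), Bst2 (0.04), Tcf4 (-0.07), Cox6a2 (-0.11) and Ccr9 (-0.16). Dendritic cells that carry CCR7 and move to lymph nodes are known for Il7r as well, and 5 of 8 tested genes of that state rose, with none lower, a median of 0.39 and sums of 5639.4 to 5830.4 in WT and 7002.8 to 8268.9 in Id2 KO. Fscn1, an actin bundling gene of that state, was at 8.66 and 9.16 on the WT arrays and at 10.06 and 10.47 on the Id2 KO arrays, a rise of 1.36 (adjusted p = 0.00153). Cd200 rose by 0.75, Socs2 by 0.80, Relb by 0.42 and Ccr7 by 0.35, while the chemokine genes Ccl22 and Ccl17 of the same list differed by 0.02 and 0.01. Leaving out either WT array ended the calls of Socs2, Relb and Ccr7, and leaving out Id2 KO replicate 2 ended those of Relb and Ccr7. The part of these cells in the result was not tested. No marker of any list was listed at an intensity of 0.

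**Figure D4:**
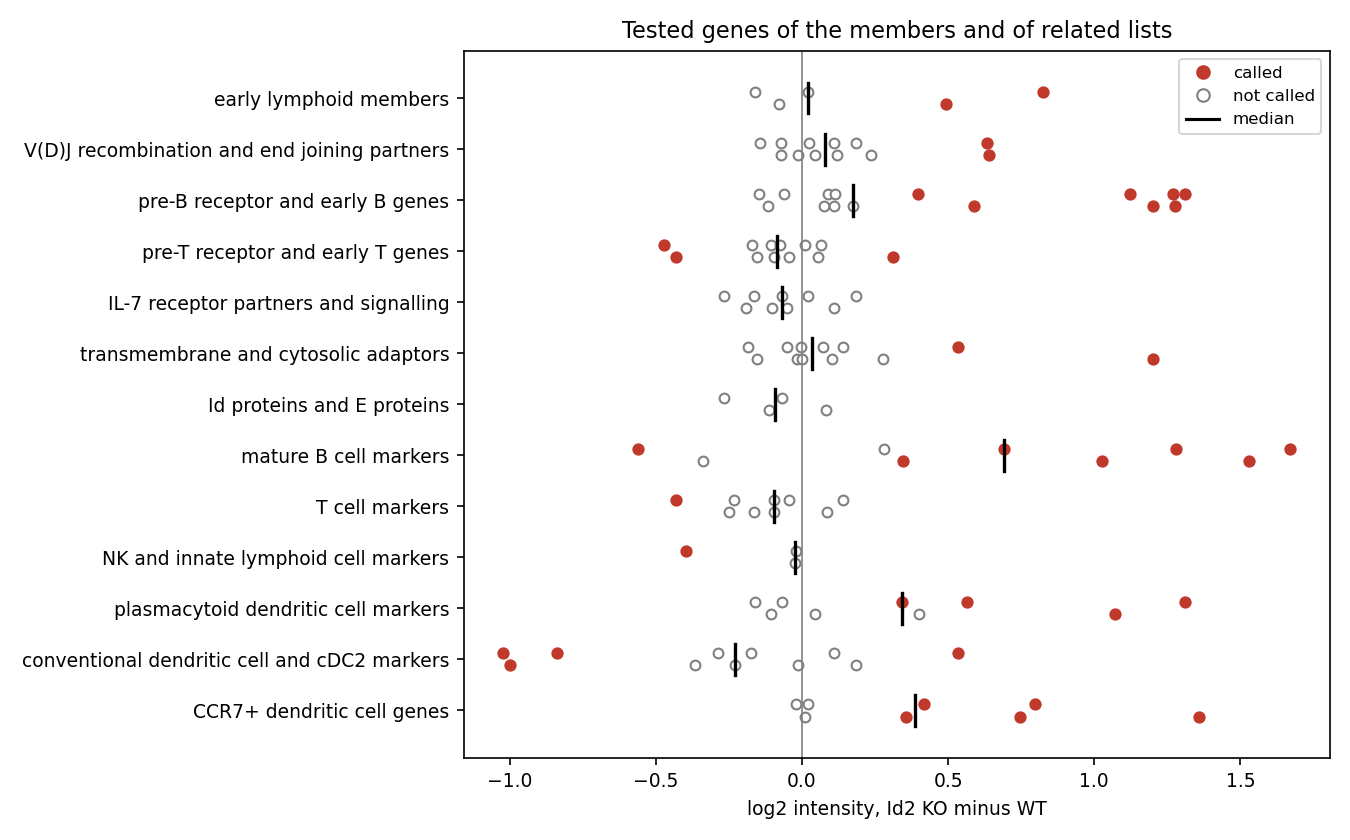
Difference in log2 intensity, Id2 KO minus WT (x axis), of each tested gene of the early lymphoid set and of 12 related lists (y axis), filled where called, open where not, with a bar at the median of the list. Early B genes and mature B cell markers hold calls above 1, the early T list holds Hes1 (-0.47), Cd3d (-0.43) and Dtx1 (0.31) as its calls, and no gene of IL-7 signalling is filled.

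The genes with the most similar course over the 4 arrays were found by the Euclidean distance between log2 profiles, each centred on its own mean. For Il7r these were Strip2 (distance 0.04), Ddx17 (0.05) and Zfp935 (0.07), with differences of 0.48, 0.45 and 0.46. For Lax1 they were Apoe (0.05), Atp11a (0.07) and Csf3r (0.07), with differences of 0.82, 0.79 and 0.82. With 4 arrays, such a likeness describes these arrays only.

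No tested marker of early progenitors rose. Of 4, Mpo (-2.09) and Meis1 (-0.50, lost without WT replicate 1) fell, and Kit (-0.13, adjusted p = 0.441) and Gata2 (-0.24, adjusted p = 0.244) did not pass. Mpo is also a granule gene of the neutrophil lineage, whose 10 markers all fell, with a median of -2.98. Among cDC and cDC2 markers 3 of 11 fell (Zbtb46 by 1.02, Itgam by 1.00 and Cd4 by 0.84; the part of the Zbtb46 reporter allele in the first was not tested) and Esam rose by 0.53, a call lost without WT replicate 1, with a median of -0.23. Summed intensities of that list were 27891.6 to 28013.8 in WT and 24118.4 to 25964.2 in Id2 KO.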

How the data were processed

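Gene expression was measured on Affymetrix arrays, 1 per sample, with 2 WT and 2 Id2 KO samples of sorted splenic cDC2. Biotinylated cDNA came from a NuGen whole-transcriptome amplification, per the labels' protocols, which can compress the levels of rare transcripts. The deposited values are 1 linear intensity per probe set, made by the authors with Affymetrix Expression Console and RMA, per the submitters' processing notes, which name no version; that RMA's log2 values were returned to a linear scale is inferred from the range. Median intensities were 134, 130, 128 and 132.

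Log2 intensities were compared with limma 3.58.1 in R 4.3.3 (lmFit, eBayes, Benjamini-Hochberg adjustment, threshold 0.05). Of 28853 probe sets, 21789 had 1 symbol, 1621 several and 5443 were not listed in the platform annotation; 21698 matched the RefSeq gene table. Precision is limited by the number of arrays. The eBayes step drew the variance of each gene towards that of all tested genes, with 6.77 prior and 2 residual degrees of freedom. The procedure was tested on simulated data. Named genes were the 8 members, the Id and E protein genes, called or largest members of 15 lists, and the 3 nearest profiles of each called member. Ebf1, Crlf2, Vpreb2, Vpreb3, Ighm, Cd72, Cxcr5, Notch1, Sirpa, Ccl17, Ccl22 and the sex-linked genes were added after their values were seen. The members and lists were chosen with earlier results of these data known. Alternatives changed the filter, scaling, probe set rule, pseudocount (16), moderation, block and arrays used.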

Additional observations from a re-analysis of the deposited data

How the results depend on the processing

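The call of Lax1 held under all 13 alternatives that tested it, and the count of early lymphoid genes that rose was 1 without a filter and 1 above the 60th percentile, where a single member was tested; with an array left out it ranged from 1 to 2. None fell under any alternative. With an array left out, the genes called among all tested ranged from 295 to 821 higher and from 136 to 338 lower, the lowest without WT replicate 1 (higher) and without WT replicate 2 (lower). The genes called lower in the related lists went from 19 to 12 above the 60th percentile, with fewer genes tested. Differences near 0 turned sign: with an array left out, the ranges were -0.20 to 0.22 for Rag1, -0.10 to 0.15 for Dntt, -0.0097 to 0.047 for Igll1, -0.44 to 0.11 for Cish, -0.11 to 0.061 for Tbx21, -0.062 to 0.023 for Prf1, -0.13 to 0.050 for Id1, -0.074 to 0.021 for Id3, -0.12 to 0.035 for Id4, -0.0046 to 0.044 for Crlf2 and -0.026 to 0.19 for Vpreb3. Prf1 was at 0.00070 with median-centred arrays, and with renewed quantile normalization Id3 was at 0.0090 and Crlf2 at -0.031. The cause was not tested. Of 64 other named genes that were called, 46 stayed called in every alternative that tested them.

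The replicate numbers are not said to pair the arrays, and the deviations of both arrays numbered 1 from their group means correlated at r = -0.144 over 11963 genes. With the replicate number as a block, 479 genes were higher and 205 lower, and Il7r (adjusted p = 0.0232) and Lax1 (adjusted p = 0.00297) kept their calls. With the numbers crossed, a choice made after seeing the data, 932 were higher and 448 lower. Among called genes, the share that was higher was 68.7% as deposited, 72.5% with median-centred arrays and 59.3% with renewed quantile normalization. No background was measured, so these arrays do not show whether Rag1, Rag2 and Dntt were above it.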
